A study of Drosophila melanogaster with 2 samples.

Results

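Mediator is a large protein complex that bridges transcription factors bound at enhancers and RNA polymerase II at promoters. Its subunits form a head and a middle that contact the polymerase, a tail that contacts many activators, a scaffold subunit that joins these parts, and a separable kinase module that can keep the polymerase away. In fly neuroblasts, Mediator is known to act together with the ecdysone receptor when these stem cells change their energy metabolism and stop dividing late in their life. The 29 genes described here were chosen by symbol, as all genes whose name in the files is MED followed by a digit, with kto and skd (the fly MED12 and MED13), CycC and Cdk8, out of 14210 genes. The gene ix, which encodes the fly MED29, was not covered by this choice of names and stood at 93.8 FPKM in osa RNAi, against 96.2 FPKM in wild type.

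RNA was measured in 2 libraries, 1 for each genotype, from brains of Drosophila melanogaster late in the third larval instar. Both libraries carry the same labels of 24 h of egg laying, 5 days of development and 25 °C. The osa RNAi flies expressed UAS-CD8::GFP and an osa RNAi line (VDRC TID:7810), and the wild type flies (w1118 strain) expressed UAS-CD8::GFP alone. In both genotypes worniu-Gal4 with ase-Gal80 drove expression, which limits the membrane GFP and the knockdown to type II neuroblasts and their progeny, and cells of high GFP were sorted. By their labels, the sorted osa RNAi cells were neuroblasts, revertant cells resembling neuroblasts, and intermediate neural progenitors, while the wild type cells were neuroblasts, intermediate progenitors and ganglion mother cells without neurons. The labels do not give the number of animals behind each library.

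Values are FPKM, fragments per kilobase of transcript normalised to library size, with the deposited interval. This interval describes 1 library and covers no spread between libraries. A difference is log2(FPKM + 1) in osa RNAi minus that in wild type, which understates changes of low genes, and a fold is the plain ratio of FPKM values with a 95% counting interval. With 1 library per genotype there was no test, and no difference has a replicate check. Interval widths implied 15707014 reads in the osa RNAi library and 10114559 in the wild type library. The targeted gene osa, a subunit of the SWI/SNF chromatin remodelling complex, was at 15.6 FPKM in osa RNAi and 31.3 FPKM in wild type. The neuroblast markers dpn (67.3 FPKM in osa RNAi and 61.97 in wild type) and wor (89.3 and 85.2 FPKM in the same order) had overlapping intervals, as did the progenitor marker erm. The other markers found in the files had intervals apart. Among neuroblast genes, pnt was at 53.3 FPKM in osa RNAi, against 13.8 FPKM in wild type, btd at 15.8 against 10.8 and mira at 302 against 192. Among progenitor genes, erm was at 41.8 FPKM in osa RNAi, against 44.7 FPKM in wild type, ase at 27.7 against 39.4, D at 23.8 against 82.3, and opa was listed at 0 against 22.5. The neuronal gene elav was at 30.5 FPKM in osa RNAi, against 41.3 FPKM in wild type, brp at 0.145 against 1.02 and Syt1 at 1.63 against 0.578, and the glial gene repo was at 0.709 in osa RNAi and listed at 0 in wild type. The part of the mix of cells in the results below was not tested, and in sorted bulk samples fewer cells of a type and less RNA per cell cannot be told apart.

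Mediator genes other than MED9 had values well above 0 in both libraries, and for most of them the level differed little between osa RNAi and wild type. Among 28 genes, all but MED9, levels ran from 6.98 FPKM (MED16) to 183 FPKM (MED10) in osa RNAi and from 4.49 FPKM (MED25) to 186 FPKM (MED22) in wild type. Their median level was 29.4 FPKM in osa RNAi and 32.5 FPKM in wild type, beside medians of 16.7 FPKM in osa RNAi and 16.1 FPKM in wild type over 7144 measured genes, those that averaged 1 FPKM or more and had the status OK in each library. All 29 genes passed this filter. The median difference of the 29 genes was −0.02, and it was 0.01 without MED9, beside 0.04 over all measured genes. The difference was less than 0.5 in size for 23 of the 29 (79.3%), beside 62.4% of measured genes, whose median level was lower.

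By the 2-fold rule, a measured gene counted as different where the size of its difference reached 1 and its deposited intervals were apart. MED9 was counted as lower and no subunit as higher, so 1 of 29 was counted where 14.6% of measured genes were (6.79% lower and 7.78% higher). MED9 shares its transcript with another listed gene and is described further on. At a threshold of 1.5-fold, MED9, MED21, MED24, MED15 and MED4 were lower and MED25 was higher, 6 of 29 where 31.4% of measured genes were counted (14.3% lower and 17.1% higher). The authors' deposited table of 15 genes at a false discovery rate of 0.01 held none of the 29.

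Deposited intervals were apart for 15 of the 29 genes, against 65.9% of measured genes. Of these, 11 were lower in osa RNAi (MED9, MED21, MED24, MED15, MED4, MED7, MED22, MED26, MED31, MED23 and MED8), where 30.0% of measured genes were, and 4 were higher (MED25, MED14, MED18 and MED10), where 35.9% were. This split depended on the scaling of the libraries. Rescaling by the upper quartile, which adds 0.11 to each gene's difference before the pseudocount, gave 10 higher and 10 lower, and over all genes 3184 higher and 1669 lower in place of 2567 and 2141. Median ratio scaling gave 3 higher and 12 lower, and over all genes 2436 higher and 2262 lower. Subunits with differences inside about 0.1 are therefore given below without a direction. Directions given for the others are those of the values as deposited. The intervals of MED8 overlapped with upper quartile scaling, and those of MED10 with median ratio scaling.

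**Figure D1:**
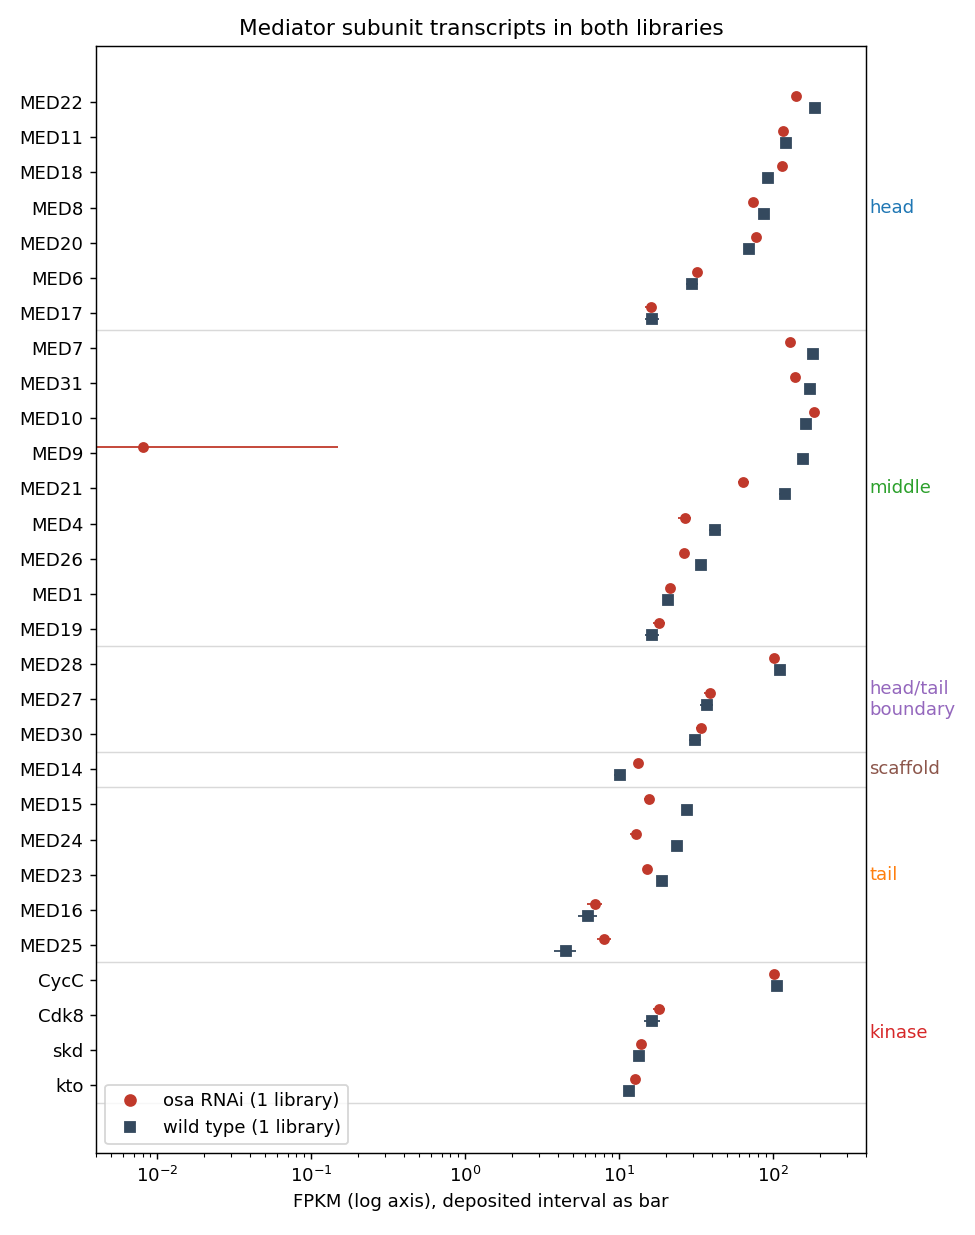
FPKM of each of the 29 Mediator genes on a log axis, grouped by module, with circles for the osa RNAi library above squares for the wild type library and bars for the deposited intervals. Levels lie between 4.49 and 186 FPKM, other than MED9 in osa RNAi at 0.00803 FPKM.

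The head contacts the polymerase and holds some of the most conserved subunits. None of its 7 genes reached a difference of 0.5 in size, and their median difference was −0.02. MED22, which pairs with MED11, was at 141 FPKM in osa RNAi (133 to 148) and 186 FPKM in wild type (175 to 197), a fold of 1.32 lower in osa RNAi (1.22 to 1.43). MED11 itself was at 115 FPKM in osa RNAi and 120.4 FPKM in wild type with overlapping intervals. MED18 and MED20 form a mobile jaw of the head and are tied to it by MED8. MED18 was higher, at 114 FPKM in osa RNAi (108 to 121) and 92.1 FPKM in wild type (85.3 to 98.9), with intervals apart. MED20 was at 77.7 FPKM in osa RNAi (73.3 to 82.0) and 69.6 FPKM in wild type (64.4 to 74.7), with overlapping intervals. The counting interval of its fold, osa RNAi over wild type, was 1.02 to 1.22, just above equal levels. MED8 was lower, at 73.8 FPKM in osa RNAi (69.6 to 77.9) and 87.2 FPKM in wild type (81.5 to 92.9). The jaw subunits and the subunit that ties them thus did not differ in 1 direction. MED17, the large central subunit of the head, was at 16.0 FPKM in osa RNAi and 16.3 FPKM in wild type, and MED6 was at 32.2 FPKM in osa RNAi and 29.7 FPKM in wild type, both with overlapping intervals.

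The middle module extends the complex along the polymerase and is where the kinase module docks. In this largest module 6 of 9 subunits were lower with intervals apart, among them MED9, where 30.0% of measured genes were. Without MED9 this was 5 of 8, beside 3 of 5 in the tail. The median difference of the middle module was −0.35, or −0.33 without MED9. MED21 and MED7 together form a flexible hinge in the yeast complex. MED21 was at 64.0 FPKM in osa RNAi (58.9 to 69.1) and 118 FPKM in wild type (109 to 128), a fold of 1.85 lower in osa RNAi (1.66 to 2.06), and 8.44% of measured genes had a lower difference. MED7 was at 128 FPKM in osa RNAi (121 to 134) and 179.8 FPKM in wild type (170.3 to 189), 1.41-fold lower (1.31 to 1.51). Both hinge genes were thus lower in the osa RNAi library.

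MED4, which binds MED9 in the complex, was at 26.6 FPKM in osa RNAi (24.1 to 29.0) and 41.9 FPKM in wild type (38.2 to 45.6), 1.58-fold lower (1.39 to 1.79). MED31, a small and highly conserved subunit, was at 139 FPKM in osa RNAi (133 to 145) and 174 FPKM in wild type (165 to 182). MED26, which in mammals recruits elongation factors, was at 26.3 FPKM in osa RNAi (25.0 to 27.6) and 33.8 FPKM in wild type (31.8 to 35.9). These 3 genes were lower by 1.25-fold (MED31) to 1.58-fold (MED4). The remaining middle genes did not share this direction. MED10 was at 183 FPKM in osa RNAi (175 to 191) and 162 FPKM in wild type (152 to 172), 1.13-fold higher with intervals apart. MED1, a contact of nuclear receptors in mammals and of GATA factors in flies, was at 21.4 FPKM in osa RNAi and 20.7 FPKM in wild type. MED19, which in flies serves as a cofactor of Hox proteins, was at 18.2 FPKM in osa RNAi and 16.4 FPKM in wild type. The intervals of MED1 and MED19 overlapped.

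MED27, MED28 and MED30 sit where the head meets the tail in metazoan complexes. None of the 3 had intervals apart. MED28 was at 101 FPKM in osa RNAi and 111 FPKM in wild type, MED27 at 38.6 FPKM in osa RNAi and 37.2 FPKM in wild type, and MED30 at 34.0 FPKM in osa RNAi and 31.1 FPKM in wild type. The counting interval of the fold, osa RNAi over wild type, was 0.835 to 0.981 for MED28, just below equal levels. For MED27 and MED30 it included equal levels. The scaffold gene MED14, whose protein runs through the complex and joins head, middle and tail, was higher, at 13.3 FPKM in osa RNAi (12.5 to 14.0) and 10.03 FPKM in wild type (9.20 to 10.9), a fold of 1.32 (1.20 to 1.46).

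The tail receives signals from many activators, and its 5 genes differed in both directions. MED24, MED15 and MED23 were lower and MED25 was higher in osa RNAi, each with intervals apart. Of measured genes, 30.0% were lower and 35.9% were higher with intervals apart. The range of differences in the tail ran from −0.84 to 0.71 around a median of −0.32. The 3 lower genes overlap other listed loci and MED16 and MED25 do not, so the tail median turned to 0.42 without overlapping loci, and it was −0.045 with MED27, MED28 and MED30 counted in the tail. MED24, which binds MED23 and MED16 within the tail and in mammals takes part in nuclear receptor signalling, was at 12.7 FPKM in osa RNAi (11.7 to 13.8) and 23.7 FPKM in wild type (21.9 to 25.4). That is a fold of 1.86 lower (1.67 to 2.07), and 8.89% of measured genes had a lower difference. MED15, a target of many activators from yeast to animals, was at 15.6 FPKM in osa RNAi (14.4 to 16.7) and 27.7 FPKM in wild type (25.8 to 29.5), 1.78-fold lower (1.61 to 1.96). MED23, which in mouse transmits signals from MAP kinase to the polymerase, was at 15.1 FPKM in osa RNAi (14.2 to 16.0) and 19.0 FPKM in wild type (17.9 to 20.2). These 3 tail subunits were lower in the osa RNAi library, while MED25 was higher and MED16 had overlapping intervals.

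In the same module MED25, a target of viral and cellular activators in human cells, was at 7.95 FPKM in osa RNAi (7.12 to 8.78) and 4.49 FPKM in wild type (3.74 to 5.24), 1.77-fold higher (1.46 to 2.15). It had the highest difference of the 29 genes, and 86.5% of measured genes had a lower one. MED25 rested on 367 implied reads in osa RNAi and on 144 in wild type, the fewest of any subunit there. MED16 was at 6.98 FPKM in osa RNAi and 6.25 FPKM in wild type with overlapping intervals. MED25 and MED16 were the lowest of the 28 genes without MED9 in both libraries, in opposite order, MED16 being lowest in osa RNAi and MED25 in wild type.

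The kinase module consists of the kinase Cdk8, its cyclin CycC, and the large proteins Kto and Skd that activate the kinase and join it to the rest of Mediator. All 4 genes had overlapping intervals. Cdk8 was at 18.1 FPKM in osa RNAi (16.5 to 19.8) and 16.4 FPKM in wild type (14.4 to 18.3). CycC was at 101 FPKM in osa RNAi (96.0 to 106) and 105 FPKM in wild type (99.1 to 112). The genes kto and skd, whose products act in Wingless signalling in flies, lay close together in level as well as between libraries. The level of kto was 12.6 FPKM in osa RNAi (12.0 to 13.2) and 11.5 FPKM in wild type (10.8 to 12.3), and that of skd was 13.9 FPKM in osa RNAi (13.3 to 14.5) and 13.3 FPKM in wild type (12.6 to 14.0). The counting interval of the fold, osa RNAi over wild type, was 1.01 to 1.18 for kto, just above equal levels. For skd it was 0.979 to 1.12, which includes equal levels. Neither interval covers a spread between libraries. The median difference of the module was 0.09, beside 0.04 over all measured genes.

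**Figure D2:**
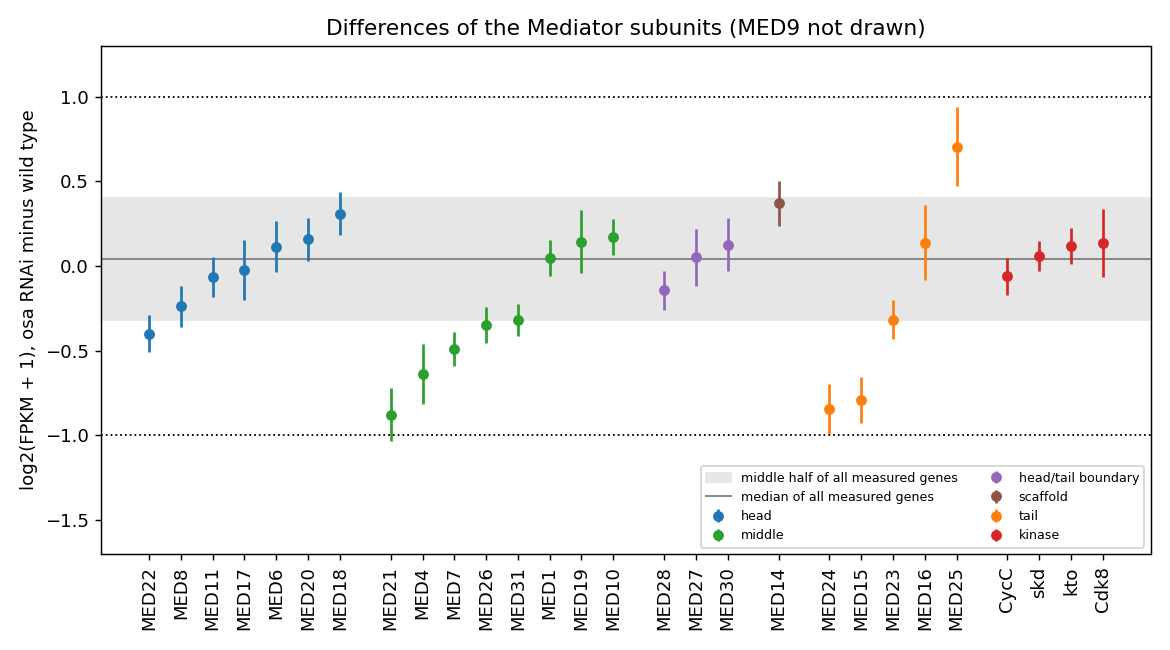
Difference in log2(FPKM + 1), osa RNAi minus wild type, of 28 Mediator genes by module, with bars for 95% counting intervals. The grey band is the interquartile range of all 7144 measured genes, the grey line their median, and the dotted lines mark 2-fold. MED21, MED24 and MED15 lie lowest, MED25 lies highest, and the 4 kinase module genes lie inside the band. MED9, at −7.28, is not drawn.

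MED9, a middle subunit, was at 0.00803 FPKM in osa RNAi (0 to 0.149) and 155 FPKM in wild type (146 to 164), a difference of −7.28 and the lowest of all measured genes. The listed gene CG42518 overlaps it and differed the other way, at 181 FPKM in osa RNAi (174 to 188) and 16.6 FPKM in wild type (12.8 to 20.3). In the coordinates of the files, MED9 lies on chromosome arm 2R from 14054782 to 14055885 and CG42518 from 14054732 to the same end. In the BDGP6 annotation, matched by gene and transcript identifiers, both genes are on the same strand and all 871 exonic bases of MED9 lie within the 899 of CG42518. Of the 2 transcripts of CG42518 listed in the files, 1 has the same exon boundaries there as the transcript of MED9. Reads from that shared transcript carry nothing that assigns them to either gene.

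Taken as a pair, MED9 and CG42518 differed far less than either gene alone. Their FPKM values summed to 181 in osa RNAi and 172 in wild type, a fold of 1.05. The implied reads were 0.0130 for MED9 and 2532 for CG42518 in osa RNAi, against 1223 for MED9 and 76.8 for CG42518 in wild type. Per 1000000 implied reads of the library the pair had 161 in osa RNAi and 128 in wild type, a fold of 1.25 (1.17 to 1.34). Implied reads come from interval widths and were checked only for genes with 1 transcript and under 50 reads. They are not counts where genes share reads, as the 0.0130 of MED9 shows, so this fold and its interval are approximate. MED9 took 0.00444% of the summed FPKM in osa RNAi and 90.4% in wild type. The pair as a whole was thus as abundant in osa RNAi as in wild type or somewhat more so, while its division between the 2 names was reversed.

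A further 2 subunits had a listed partner on the same strand, and in both cases the subunit was lower and the partner higher in osa RNAi. The gene slx1, whose homologs in other species encode a nuclease subunit, starts at the same position as MED31 and was at 14.4 FPKM in osa RNAi and 3.07 FPKM in wild type. MED31 and slx1 share 46 exonic bases in BDGP6, and per 1000000 implied reads the pair had 145 in osa RNAi and 160.2 in wild type, a fold of 0.906 (0.850 to 0.966). CG3700 lies within the locus of MED23 in all but its last bases and was at 14.8 FPKM in osa RNAi and 2.64 FPKM in wild type. Of the 2 listed transcripts of MED23, 1 was found in BDGP6, and it shares no exonic base with CG3700 there. Exon sharing of the other transcript was not examined. MED23 and CG3700 together had 85.1 per 1000000 implied reads in osa RNAi and 109.6 in wild type, a fold of 0.776 (0.717 to 0.841). Summed FPKM of MED31 and slx1 was 153 in osa RNAi and 177 in wild type, a fold of 0.868. Summed FPKM of MED23 and CG3700 ran against the reads, at 29.9 in osa RNAi and 21.7 in wild type, a fold of 1.38. CG3700 has 1183 exonic bases in BDGP6 and MED23 has 4682. The direction of the MED23 pair thus depended on the measure.

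**Figure D3:**
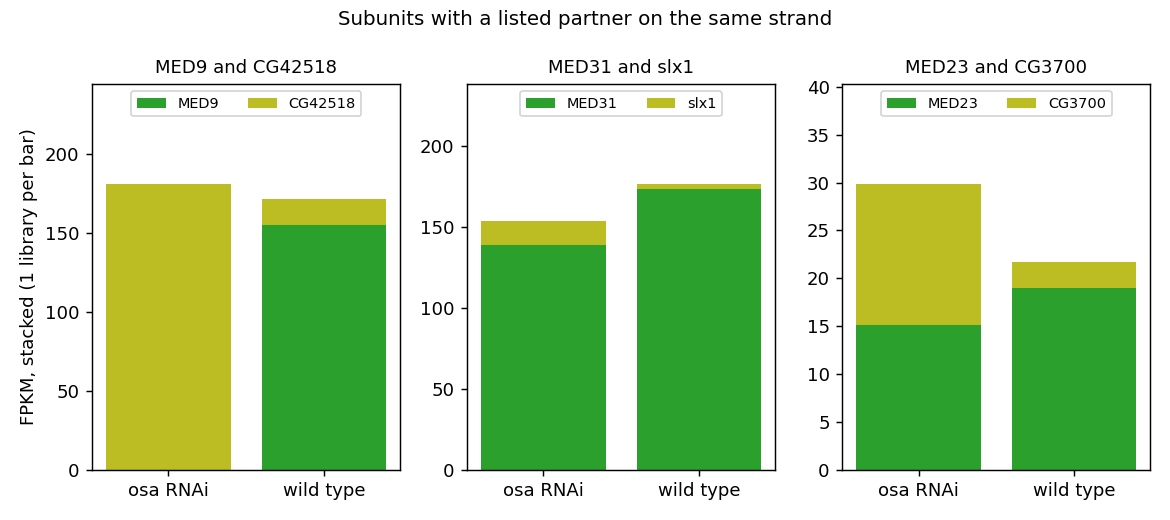
FPKM of MED9, MED31 and MED23, each stacked with its listed partner on the same strand, in the osa RNAi library (left bar) and the wild type library (right bar), 1 library per bar. The MED9 and CG42518 bars reach 181 and 172 FPKM, with nearly all of the osa RNAi bar on CG42518 and most of the wild type bar on MED9.

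Overlap with other listed loci touched 16 of the 29 genes, beside 42.0% of measured genes. For most of the 16 the other gene was on the other strand. The library protocol keeps strand, but no label or header says if the FPKM estimates used it. MED21 (3LHet, 600374 to 601422 in the files) overlaps Set1 over 263 bases, and Set1 was also lower, at 7.68 FPKM in osa RNAi and 11.2 FPKM in wild type. MED24 (3L, 8184372 to 8189673) overlaps Ubc12 over 41 bases, and Ubc12 was lower too, at 235 FPKM in osa RNAi and 360.3 FPKM in wild type. MED24 also overlaps CG7387 over 1595 bases, with no shared exonic base in BDGP6, and CG7387 was at 1.18 FPKM in osa RNAi and 1.59 FPKM in wild type. The locus of MED15 (2L, 473021 to 476170) overlaps that of CG4297, which was listed at 0 in osa RNAi and at 0.208 FPKM in wild type. The part of Set1, Ubc12 and CG7387 in the values of MED21 and MED24 was not tested. MED4 (3L, 7242629 to 7243623) and MED25 (3R, 15834718 to 15837434), lower and higher in osa RNAi, overlap no listed locus. Among the 13 genes without overlap the median difference was 0.12, beside 0.04 over all measured genes, with and without overlap.

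The other overlapping genes, all on the opposite strand in BDGP6, differed in both directions. Beside head genes, CG8920 (over MED8) was at 4.58 FPKM in osa RNAi and 4.28 FPKM in wild type, Nufip (MED11) at 10.9 against 8.22, CG14815 (MED18) at 13.4 against 16.4, and CG8478 and CG8481 (both over MED6) at 43.3 against 54.4 and at 25.2 against 47.4. CG14313 (MED17) and CG3708 (MED22) were listed at 0 in both libraries. Beside the remaining modules, PDCD-5 (MED10) was at 295 FPKM in osa RNAi and 227 FPKM in wild type, CG2182 (MED27) at 29.5 against 18.9, CG13893 (MED14) at 2.97 against 3.56, and CG33332 and CG3731 (both over CycC) at 15.6 against 24.9 and at 103 against 113. MED6 and CycC had overlapping intervals, and both listed neighbours of each were lower with intervals apart. The part of these neighbours in the values of the subunits was not tested.

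Levels among the subunits followed transcript length although FPKM is scaled to length. Among the 28 genes without MED9, the 14 with a longest annotated transcript under 1500 nucleotides in BDGP6 ranged from 26.6 to 183 FPKM in osa RNAi and from 31.1 to 186 FPKM in wild type. The 14 longer ones ranged from 6.98 to 32.2 FPKM in osa RNAi and from 4.49 to 33.8 FPKM in wild type. The boundary of 1500 nucleotides was chosen after the values were seen. Transcript levels of subunits of the same complex differed up to 26.2-fold within the osa RNAi library and 41.4-fold within the wild type library. Across these 28 genes, which share libraries and are not independent replicates, Spearman's rho between length and FPKM was −0.85 in osa RNAi and −0.84 in wild type. The rho between length and difference was 0.17.

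**Figure D4:**
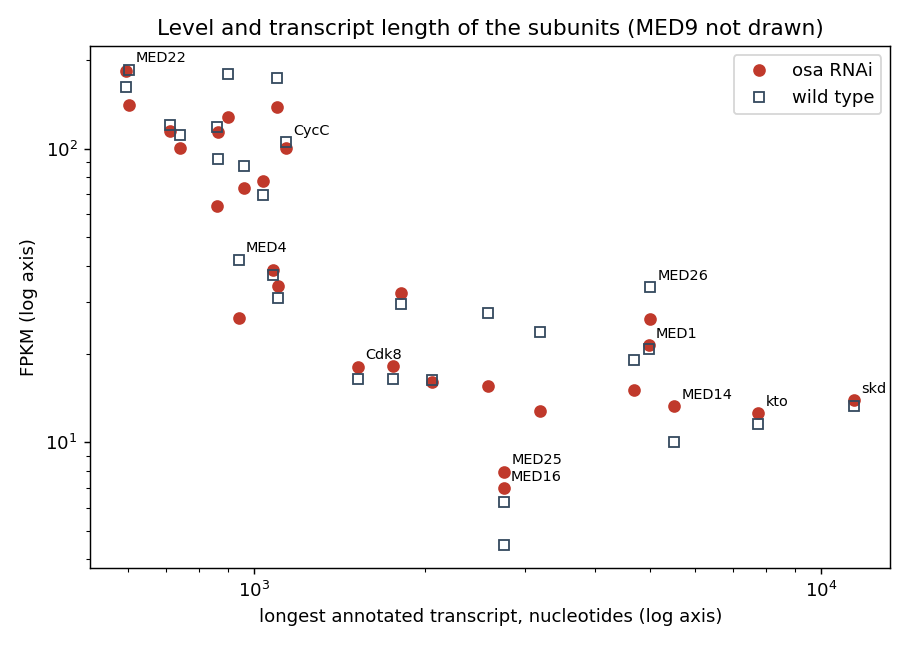
FPKM against the longest annotated transcript length, both on log axes, for 28 Mediator genes, with filled circles for osa RNAi and open squares for wild type. Short genes such as MED22 and CycC lie near 100 FPKM or above, while the longest, kto and skd, lie between 11.5 and 13.9 FPKM.

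The order of the levels was largely the same in both libraries, with a Spearman's rho of 0.95 over the 28 genes, beside 0.94 over all measured genes, as a description of 2 libraries. MED10 had rank 1 in osa RNAi and rank 4 in wild type, and MED22 had rank 2 in osa RNAi and rank 1 in wild type. In osa RNAi the intervals of MED22 (133 to 148) and MED31 (133 to 145), its neighbour in the order, overlapped. In wild type the intervals of MED22 (175 to 197), MED7 (170.3 to 189) and MED31 (165 to 182) overlapped from each to the next, so counting error does not separate these neighbours.

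Other transcription machinery was compared with lists chosen, like the Mediator genes, with earlier results of these data known. No measured gene of the 4 lists passed the 2-fold rule, which 14.6% of measured genes passed. All 12 genes of RNA polymerase II were measured, with a median difference of −0.0037 and 4 genes apart in each direction. The largest differences were those of Rpb7 (142 FPKM in osa RNAi and 214 in wild type), Rpb5 (337 and 268 in the same order) and Rpb12 (470.4 and 587). Of the general transcription factors, 30 were measured, with a median of 0.03, 9 genes higher and 11 lower with intervals apart. Taf5, a core subunit of TFIID, was at 7.41 FPKM in osa RNAi and 13.5 in wild type, the TFIID gene Taf13 at 99.1 and 145 in the same order, and the TFIIH gene Ssl1 at 44.9 and 64.8. Both medians lay near that of Mediator without MED9 (0.01).

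Of 13 measured genes of pausing and elongation, 4 were higher and 2 lower with intervals apart, with a median of −0.04. Cdk9, the kinase that releases paused polymerase, was at 48.3 FPKM in osa RNAi (45.4 to 51.1) and 30.2 FPKM in wild type (27.5 to 33.0), while its cyclin gene CycT was at 22.3 FPKM in osa RNAi and 23.7 in wild type with overlapping intervals. The elongation factor gene Spt5 was at 33.4 FPKM in osa RNAi and 22.5 in wild type, and Spt6 at 27.1 and 18.9 in the same order. Cdk9 thus stood 1.60-fold higher, whereas Cdk8 of the Mediator kinase module had overlapping intervals.

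Of 10 measured factors linked to Mediator in flies, 3 were higher and 4 lower with intervals apart, with a median of −0.13. The partners of the ecdysone receptor differed in opposite directions. EcR was at 6.12 FPKM in osa RNAi (5.53 to 6.71) and 3.0 FPKM in wild type (2.47 to 3.53), a plain fold of 2.04 and a difference of 0.83 on the log2(FPKM + 1) scale, which left it short of the rule. Its partner usp was at 8.33 FPKM in osa RNAi (7.42 to 9.25) and 16.5 FPKM in wild type (14.9 to 18.0), a difference of −0.90. Both loci overlap another listed gene. Su(H), through which Notch signalling reaches DNA, was at 11.4 FPKM in osa RNAi and 5.45 in wild type, a plain fold of 2.08 that also fell short of the rule on the log2(FPKM + 1) scale. Of the Wingless pathway genes in this list, arm, the fly beta-catenin, was lower with intervals apart, at 41.97 FPKM in osa RNAi (40.2 to 43.8) and 53.9 FPKM in wild type (51.4 to 56.4). The others, pygo (9.44 FPKM in osa RNAi and 9.39 in wild type), lgs (15.3 and 16.6) and pan (11.5 and 12.9), had overlapping intervals.

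**Figure D5:**
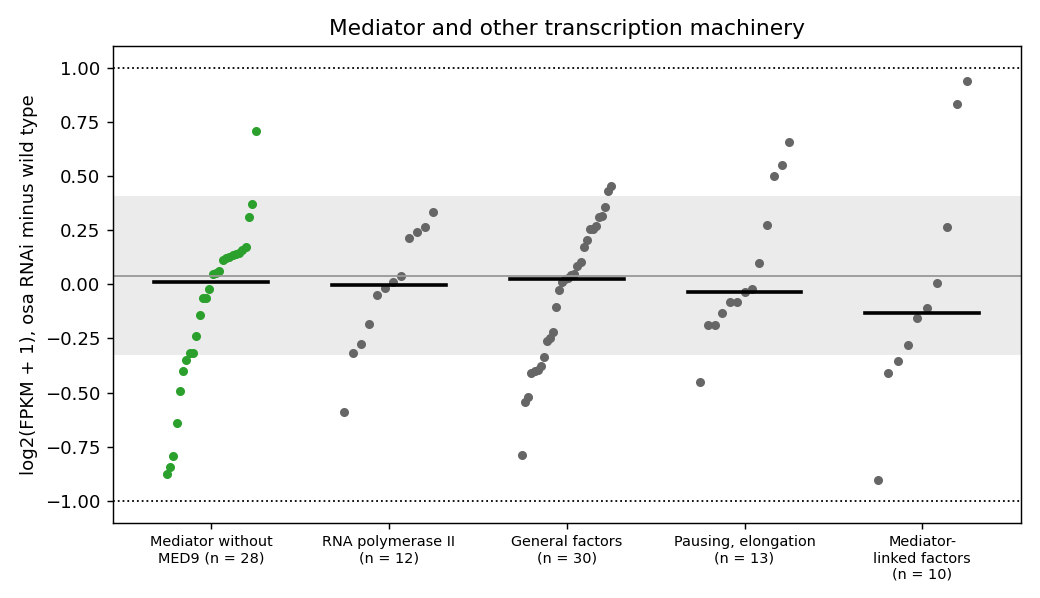
Difference in log2(FPKM + 1), osa RNAi minus wild type, of each measured gene in Mediator without MED9 and in 4 lists of related machinery, with a black bar for each median. The grey band is the interquartile range of all measured genes and the dotted lines mark 2-fold. No point lies beyond them, and Su(H) and EcR, at 0.94 and 0.83, lie highest.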

How the data were processed

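Each library has a table of FPKM values with bounds and a status per gene, deposited by the authors, per the file headers. Tools named in the submitters' processing notes, with no role given, are Cufflinks 1.3.0, TopHat 1.4.1, BWA 0.6.1, DESeq 1.8.3 and HTSeq. No label or header states the genome build or annotation. Of 13575 gene identifiers shared with BDGP6, 1471 had the same start, so coordinates stay as in the files, counted from 1, and BDGP6 gave strand, exons and transcript lengths by identifier only. A further table deposited by the authors gives DESeq adjusted p-values. Its 2 columns of normalised values per genotype were not used.

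The tables were joined by gene identifier with Python 3.11.15 and pandas 2.3.3. Implied reads n were taken from the interval width (FPKM ± 2 × FPKM/√n), and were whole within 0.02 for 93.4% of 1018 osa RNAi genes and 92.8% of 846 wild type genes with 1 transcript and under 50 reads. Status left out 21 genes that averaged 1 FPKM or more. Reads carry no molecular identifiers, and intervals cover no spread between libraries. Genotype labels gave the groups, and no test was run with 1 library each. Alternatives were other pseudocounts, scalings, filters, fold thresholds and the omission of overlapping loci. Named genes are all members, their overlapping genes, osa, the markers and up to 3 genes of each list with the largest differences, besides ix, CycT, arm, pygo, lgs and pan, chosen after their values were seen. The symbols Tfb2, Tfb5, Hexim, SREBP and nSyb found no row and are not analysed here, and Dif was listed at 0 in both libraries. Members, modules and lists were chosen with earlier results of these data known.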

Additional observations from a re-analysis of the deposited data

How the results depend on the processing

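No paired analysis was possible because each genotype has 1 library, and for the same reason no replicate could be left out. The median difference of the Mediator genes (−0.02) ran from −0.048 with median ratio scaling to 0.084 with upper quartile scaling among the settings with small shifts. Shifts of this median were called small where they were less than the median counting error of single Mediator genes. A counting error of the median itself was not computed. The median was 0.12 without overlapping loci, and the mean was −0.35 with MED9 included. Without overlapping loci the head median was 0.16 and the tail median, then of MED16 and MED25, 0.42. With MED27, MED28 and MED30 counted in the tail, its median was −0.045. With upper quartile scaling the medians were −0.24 for the middle module, 0.11 for RNA polymerase II and 0.077 for pausing and elongation, and the reads of MED9 with CG42518 differed by 0.44 in log2, against 0.33 as deposited, or 0.076 by summed FPKM, a comparison added after the data were seen. The count of Mediator genes past the 2-fold rule (1) was 6 at 1.5-fold and 0 without MED9 or without overlapping loci. The count over all genes (1041) was 263 with a pseudocount of 5, 441 at a mean of at least 5 FPKM, 2242 at 1.5-fold, 532 at 3-fold and 571 without overlapping loci. Mediator genes with intervals apart (4 higher, 11 lower) numbered 10 higher with upper quartile scaling. Without overlapping loci, 13 Mediator genes remained, of which 1 was higher and 3 were lower. That setting left out 3001 of the 7144 measured genes, and over the remaining genes 1504 were higher and 1236 lower. Of 116 values of single Mediator genes under other pseudocounts and scalings, 103 moved by less than counting error. The sign turned for CycC, MED11 and MED17, each with upper quartile scaling. Low depth limits MED25 and MED16 most.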
